A study of Homo sapiens with 12 samples.

Results

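SCRIB and 9 other genes that set the apical and basal sides of epithelial cells were examined in 2 lists of RNA sites bound by an antibody against 1-methylguanosine (m1G). The genes were SCRIB, LLGL1, LLGL2, DLG1 and DLG5 of the Scribble module, PARD3, PARD6B and PRKCI of the Par complex, and PATJ and PALS1 of the Crumbs complex. A site belonged to a gene when it lay inside the gene's span on the human genome build GRCh38. These 10 genes, of 20056 protein-coding genes in the RefSeq table, held 15 of the 9585 peaks of the list named MetDiff and 7 of the 3705 summits of the list from the peak caller MACS2. The group was chosen by its measured values, above all the fold of SCRIB in the MetDiff list. The folds, false discovery rates (FDR), −log10 q values and site counts are therefore given as descriptions, without a test.

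The libraries came from PANC-1, a cell line established from pancreatic ductal adenocarcinoma, transfected with siRNA. There were 12 libraries of polyadenylated, fragmented RNA in 4 groups of 3. These were input RNA and m1G precipitated RNA from WT control cells, and the same pair from TRMT5 KD cells, depleted of TRMT5 for 4 days. TRMT5 is the methyltransferase that places m1G beside the anticodon of tRNAs, and the experiment asked which mRNAs may carry m1G. Neither list has a value per library or a column labelled as knockdown against control, so levels by sample and the effect of the knockdown were not analysed here. For the same reason no error or replicate number stands beside a fold, and the read depth is unknown. Of 6 ductal and epithelial marker genes, KRT8, KRT18, KRT19 and CDH1 had a peak or summit, and KRT7 and EPCAM had neither. Of 3 mesenchymal genes, VIM and CDH2 had one and ZEB1 had neither, and 0 of 9 immune, acinar, islet and stellate marker genes did. Of all protein-coding genes, 21.3% had a peak and 9.4% a summit, so counts over so few markers do not tell cell types apart. A gene without a peak may still be expressed, as no expression table was used here.

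Epithelial cells keep an apical and a basolateral membrane apart through 3 sets of proteins, in which the apical and the basolateral proteins exclude each other. The Par complex joins the scaffold PARD3, the adaptor PARD6 and an atypical protein kinase C, and with the Crumbs complex it marks the apical side and the tight junction. Scribble, the Lgl proteins and the Dlg proteins hold the basolateral side, and the kinase phosphorylates Lgl to keep it off the apical membrane. Loss or misplacement of these proteins is known to accompany the loss of epithelial order in carcinomas.

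Scribble-module genes had most of the sites, Par genes a few and Crumbs genes none. At least 1 MetDiff peak lay in 6 of the 10 genes, where 21.3% of all protein-coding genes had one. A summit lay in 3 of the 10, where 9.4% of protein-coding genes had one. The genes with a summit, SCRIB, DLG5 and PRKCI, also had a peak, so that 3 of 10 had both (8.07% of protein-coding genes) and 3 of the 6 with a peak had a summit (37.9% of genes with a peak). The Scribble module had peaks in 4 of its 5 genes (11 peaks) and summits in 2 (6 summits). SCRIB alone, picked for its fold, held 6 of these peaks and 4 of these summits. The Par complex had peaks in 2 of 3 genes (4 peaks) and 1 summit. PATJ and PALS1 had neither a peak nor a summit. The genes were picked with these data in view, so the excess over the background is not evidence for polarity genes as a class. The order of the modules is likewise only a description.

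**Figure D1:**
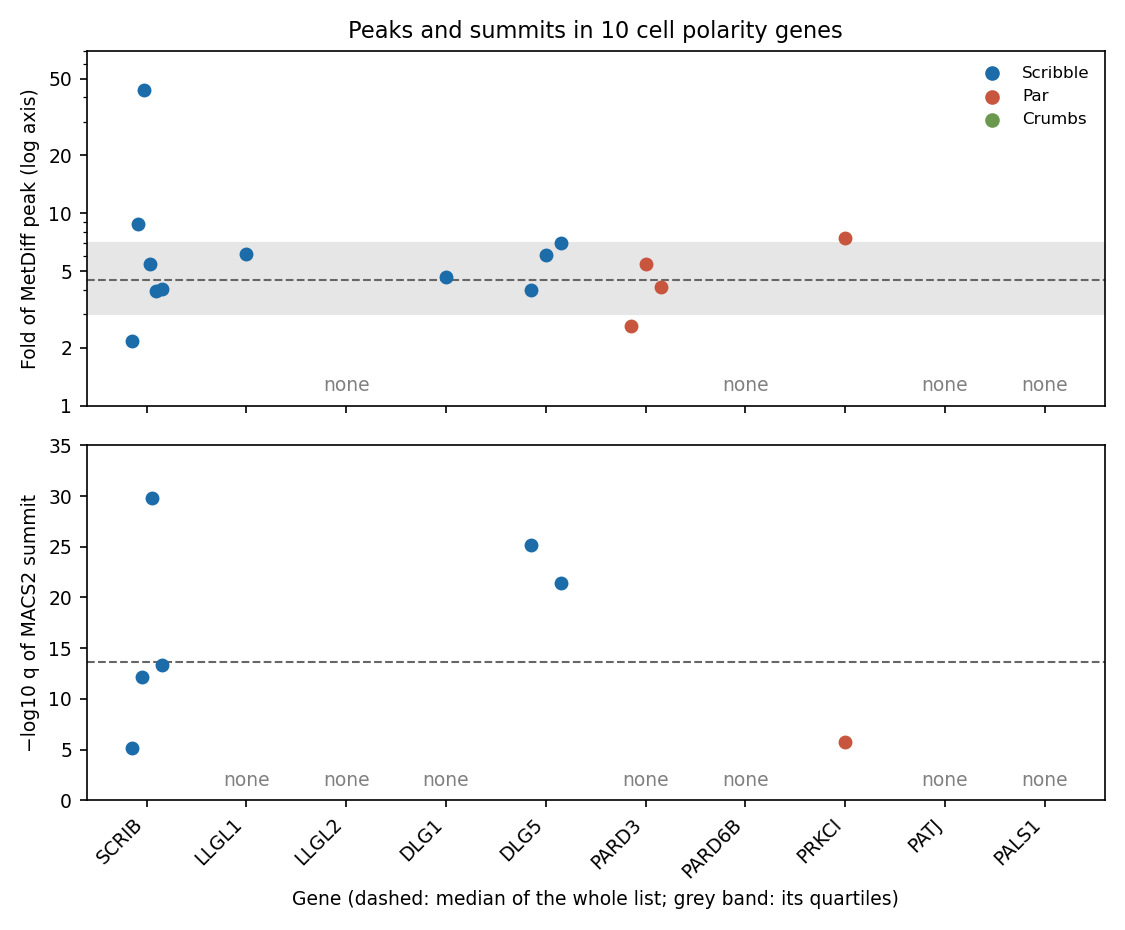
Fold of every MetDiff peak (top, log axis) and −log10 q of every MACS2 summit (bottom) in the 10 genes, each point a peak or summit, coloured by module; dashed lines are the medians of the whole lists (4.5 and 13.7) and the grey band runs between the list's quartiles of fold, 3.0 and 7.0. The SCRIB peak at 43.5 stands apart, and the other 14 peaks lie between 2.16 and 8.75.

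SCRIB encodes the large scaffold of leucine-rich repeats and PDZ domains for which the module is named. Its span (chromosome 8, 143790925 to 143815773, minus strand, gene ID ENSG00000180900) covers 24.8 kb and held 6 MetDiff peaks and 4 summits. Only 1.34% of protein-coding genes, or 6.28% of those with a peak, had at least 6 peaks. From the 5′ end to the 3′ end the folds were 4.03, 3.95, 5.47, 43.5, 8.75 and 2.16. A single peak near the middle of the gene was thus far above its neighbours, which lay on both sides of the list median of 4.5. The fold is the authors' value and was read as m1G precipitate over input from the place of its column, which no header states.

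The peak with a fold of 43.5 ran from 143803432 to 143803657, between 12.1 and 12.3 kb from the 5′ end of the span. It covered 151 exonic bases, as a block of 11 bases on the 5′ side and a block of 140 bases on the 3′ side of a gap of 75 bases. In the MetDiff layout such blocks are exon pieces and the gaps between them were taken as introns. The next peak upstream, from 143803807 to 143804061, was built alike, with blocks of 16 and 134 bases around a gap of 105 bases, and had a fold of 5.47.

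Among all 9585 peaks, 12 had a fold of at least 43.5, the SCRIB peak included. By their highest peak, 11 protein-coding genes reached it. SCRIB was set beside the 268 protein-coding genes that had at least 6 peaks. Its highest fold was 4.97 times its second highest, where the median of that ratio over these genes was 1.27. Besides SCRIB, the Janus kinase gene TYK2 alone reached a ratio as high (5.32, with folds of 48.5 and 9.12), and it is named here after its value was seen. The median fold of the SCRIB peaks, 4.75, was reached by 93 of the 268 genes, with a median of 4.24 over their medians. SCRIB thus ranked high by its single peak and not by the middle of its peaks. SCRIB was itself picked for that fold, so its rank and its ratio follow from the choice and are descriptions only.

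The FDR of the peak with the highest SCRIB fold was less extreme than its fold. It was 0.0049, and 86.5% of all peaks had an FDR at or below this value. The 6 SCRIB peaks had FDRs from 0.00363 to 0.017, all above the list median of 0.00024. Of the 19 peaks in the list with a fold of at least 40, 3 had an FDR as high as this peak or higher, SCRIB included, and the median over the 19 was 0.000178. The number of reads under the peak is not in the list, so the counting error of the fold cannot be given.

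**Figure D2:**
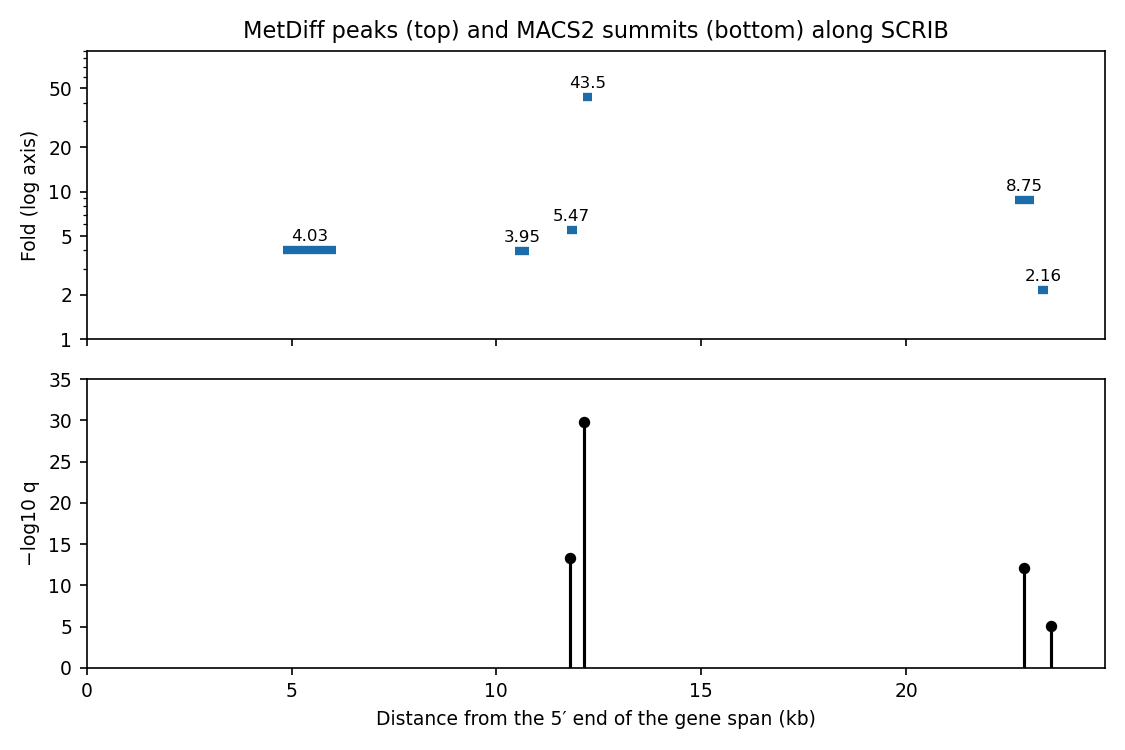
MetDiff peaks (top, height is fold on a log axis, bar length is the extent of the peak) and MACS2 summits (bottom, height is −log10 q) along SCRIB, by distance from the 5′ end of the gene span in kb. The highest fold, 43.5, and the highest summit, 29.8, lie at the same place near 12.2 kb, and the first 2 peaks from the 5′ end (4.03 and 3.95) have no summit within 150 bases.

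The MACS2 list, whose −log10 q measures significance and not enrichment, put its strongest SCRIB summit at the same place. The 4 summits lay at positions 143803968, 143803625, 143792907 and 143792247 in 5′ to 3′ order, with −log10 q of 13.3, 29.8, 12.2 and 5.13. The summit of 29.8 lay 22 bases from the nearest block of the peak with a fold of 43.5. It was reached by 14.1% of all summits, and as the strongest of its gene by 17.8% of the protein-coding genes with a summit. The summits of 13.3 and 29.8 lay 343 bases apart and were marked by letters as parts of the same MACS2 peak, as were 12.1% of all summits. The remaining summits lay near the 3′ end, 40 bases from the peak of fold 8.75 and 72 bases from the peak of fold 2.16. The order of the 4 summits by −log10 q was not that of the paired folds, since the summit of 13.3 went with a fold of 5.47 and that of 12.2 with 8.75. Both lists can come from 1 set of libraries, and the match of positions is no independent support.

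DLG5 encodes a membrane-associated guanylate kinase scaffold at cell junctions. Its span (chromosome 10, 77790791 to 77940736, minus strand, ENSG00000151208) covers 150 kb and held 3 peaks and 2 summits. In 5′ to 3′ order the peaks lay at 77829410 to 77833932, 77819959 to 77820058 and 77796174 to 77796586, with folds of 6.97, 6.10 and 4.0. Their FDRs were 0.002, 0.002 and 0.00209. All 3 lay between 106804 and 144562 bases from the 5′ end, in the last part of the span, and the first joined 4 exon blocks of 19, 133, 128 and 121 bases. A summit with −log10 q of 25.2 at 77829606 lay 76 bases from the 121-base block of that peak. The other summit, of 21.5 at 77926515, lay 14221 bases from the 5′ end and 92583 bases from the nearest exon block. It lay outside the antisense gene DLG5-AS1, 297 bases from its span. Summits carry no strand, so the strand of its RNA is unknown. In the whole list 27.2% of summits lay over 1000 bases from any MetDiff block.

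LLGL1 and LLGL2 encode the human Lgl proteins. LLGL1 (chromosome 17, 18225635 to 18244875, plus strand, ENSG00000131899) had 1 peak, at 18240686 to 18240786, with a fold of 6.12 (FDR 0.000513). That fold was reached by 32.4% of all peaks in the list. It was near the centre of the highest folds per gene, since 51.0% of protein-coding genes with a peak had one at least as large. LLGL2 (chromosome 17, 75525002 to 75575209) had no peak, and neither gene had a summit. DLG1 encodes the scaffold closest to the fly protein Discs large. DLG1 (chromosome 3, 197042560 to 197299321, minus strand, ENSG00000075711) had 1 peak and no summit. The peak, at 197297718 to 197298017, was a single block of 300 bases with a fold of 4.67. Its FDR of 3.31e-05 was the lowest of the 15 peaks and the only one below the list median.

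In the Par complex, PRKCI and PARD3 each had a peak at the 5′ end of the gene. PRKCI encodes the atypical protein kinase C iota. PRKCI (chromosome 3, 170222424 to 170305977, plus strand, ENSG00000163558) had 1 peak, at 170222623 to 170222723, with a fold of 7.41 (FDR 0.000427). After the 2 highest SCRIB peaks this was the largest fold of the 15. It began 199 bases from the 5′ end of an 83.6 kb span, and a summit with −log10 q of 5.77 lay 58 bases before it, at 170222565. That summit was weak within its list, where 88.5% of summits were at least as high.

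PARD3 encodes the PDZ scaffold of the complex and has the longest of the 10 spans. PARD3 (chromosome 10, 34109561 to 34815296, minus strand, ENSG00000148498) held 3 peaks and no summit over 706 kb. The peak at 34815076 to 34815275, with a fold of 4.12, began 21 bases from the 5′ end. The next ran from 34517114 to 34696372 with a fold of 5.42, because it joined exon blocks of 55 and 46 bases across a gap of 179158 bases. The last, at 34331234 to 34331333, had a fold of 2.60. The PARD3 peaks were thus spread from the start of the gene to 484 kb into it, with FDRs of 0.000813 to 0.00162. PARD6B, the adaptor between the kinase and the small GTPase CDC42 (chromosome 20, 50731580 to 50753741), had no site.

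PATJ and PALS1 encode the scaffolds that tie the Crumbs receptor to the tight junction. PATJ (chromosome 1, 61742480 to 62163915) has a span of 421 kb and PALS1 (chromosome 14, 67241435 to 67336061) one of 94.6 kb, and both lists were empty in them. PALS1 lies wholly inside the span of another protein-coding gene, GPHN. Any site there would have had 2 candidate genes, but there was none. SCRIB, among the shortest spans with 24.8 kb, had the most sites. It was picked for its values and exon lengths were not used, so a link between gene length and number of sites was not tested.

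By fold the 15 peaks were not a group apart. Their median was 5.42, against 4.5 over the list, and 9 of 15 were at or above the list median. Without SCRIB the other 9 peaks ranged from 2.60 to 7.41 with a median that was also 5.42. Their FDRs were weak, with a median of 0.002 against 0.00024, and 14 of 15 were above the list median. Equal FDRs, to the digits given, stood at 2 peaks each of SCRIB, DLG5 and PARD3.

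**Figure D3:**
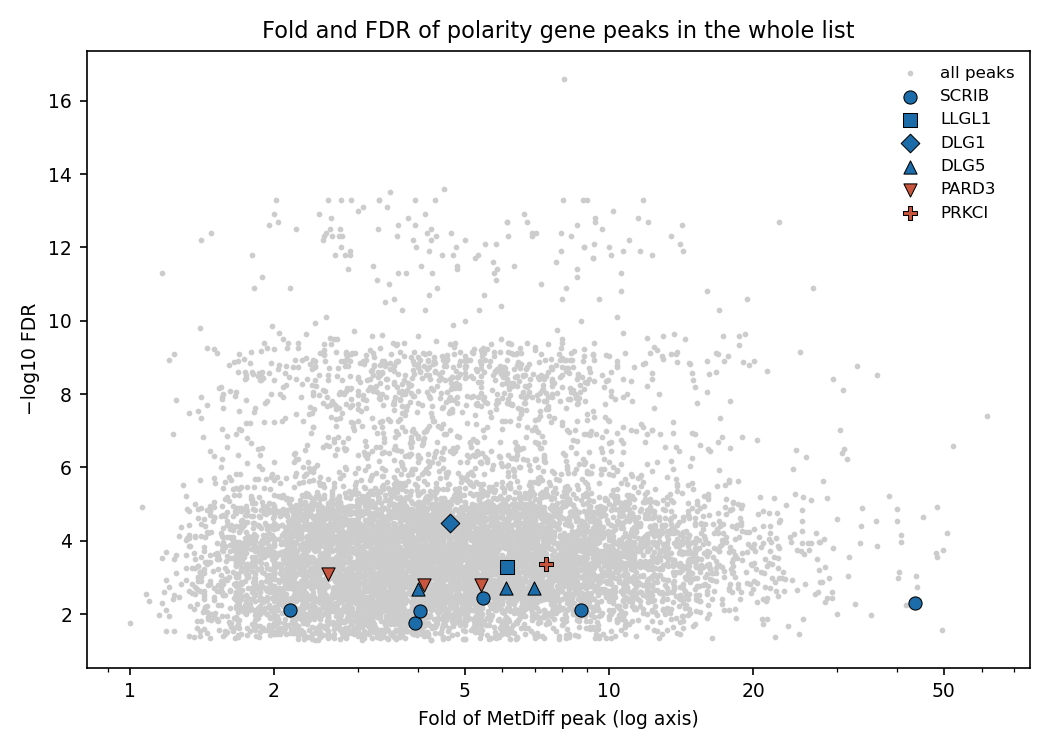
Fold (log axis) against −log10 FDR for all 9585 MetDiff peaks (grey) and for the 15 peaks of the polarity genes (symbols by gene, blue for the Scribble module, red for the Par complex). The SCRIB peak of fold 43.5 lies at the right edge and low in the plot (FDR 0.0049), and DLG1 is the highest of the symbols (FDR 3.31e-05).

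More than 1 exon was joined in 9 of the 15 peaks, 6 of them all those of SCRIB, where 33.4% of all MetDiff peaks had several blocks. The folds of multi-block and single-block peaks had medians of 5.42 and 5.38. The exonic length ran from 100 to 401 bases with a median of 151, against 101 over the list. All 15 lengths were a multiple of 50 bases or 1 base more, as were 85.8% of all peaks, so peak ends were set on a grid and not to the base. Along the span, 5 peaks had their midpoint in the 25% nearest the 3′ end (42.2% of all peaks with a sole protein-coding gene), 4 in the 25% nearest the 5′ end (25.2%) and 6 between. The midpoint of a multi-block peak can lie far from its exon blocks. For 1 PARD3 peak of the 6 it lay in a gap of 179158 bases, between blocks 118924 and 298137 bases from the 5′ end. Only the peaks of PARD3 and PRKCI began within 500 bases of the 5′ end of the span (15.2% of peaks in the list).

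The summits of the polarity genes were set beside the exon blocks. Of the 7 summits, 0 lay inside a MetDiff block, where 17.7% of all summits did, and 6 lay within 150 bases of a block (63.6% of all summits). The other, in DLG5, lay 92583 bases from a block. With so few summits, 4 of them in SCRIB, the count of 0 is not shown to be a trait of these genes. In 4 cases the summit lay in the gap between 2 blocks of the same peak, a place held by 16.8% of all summits. For SCRIB these gaps were 105, 75 and 108 bases long, and the summits were 28, 22 and 40 bases from the nearest block. For DLG5 the gap was 686 bases and the distance 76. Over the whole list, 624 summits lay in such gaps, with a median gap of 728 bases and a median distance to the block of 71. Of the summits within the outer limits of a MetDiff peak, 48.8% were in no block. Whether the reads under these summits crossed splice junctions was not tested.

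**Figure D4:**
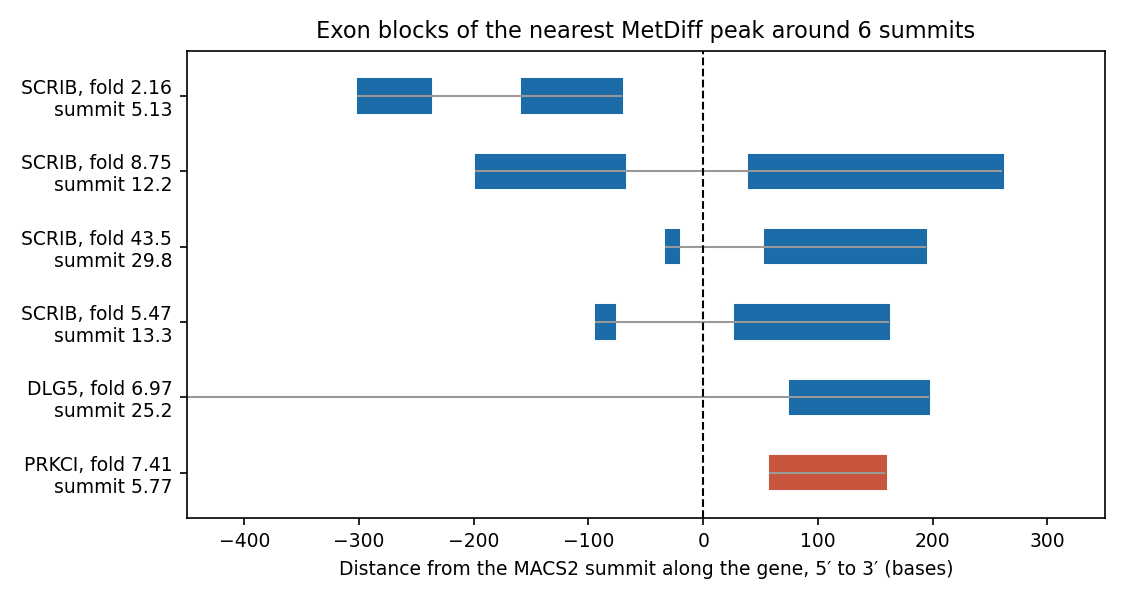
Exon blocks (boxes) and gaps (grey lines) of the nearest MetDiff peak around each of the 6 summits that lie within 150 bases of a block, by distance from the summit in bases along the gene, with the summit at the dashed line. The summit falls in a gap between blocks in 4 rows, among them the SCRIB peak of fold 43.5 with its 75-base gap, and outside the peak in the top and bottom rows; the DLG5 row runs on beyond the left edge.

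Sites near transcription starts were set beside the promoter table of RefSeq, whose windows run from 250 bases before to 50 bases after a listed start. It held 9 windows for 5 of the 10 genes (LLGL1, DLG1, PRKCI, PATJ and PALS1). No peak or summit of these genes reached into a window. The PRKCI peak lay 199 to 299 bases and its summit 141 bases downstream of the listed start. The DLG1 peak lay 118 to 417 bases downstream of the start at 197298135, 1 of 5 listed for that gene, and 1304 to 1603 bases from the outermost. No sequence under the peaks of the 10 genes was used here.

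A wider list of 54 genes held paralogs and partners of these proteins. Of these genes, 21 had a MetDiff peak (38.9%, where 21.3% of protein-coding genes had one) and 14 a summit (25.9%, where 9.4% did), and 28 had neither. The highest fold per gene had a median of 5.89 over the 21 genes, 6.54 over the 6 polarity genes with a peak and 6.18 over all protein-coding genes with a peak. The count of genes with a site was thus above the background, while their folds were not. The background counts expressed and silent genes alike, and whether expression has a part in the count was not tested. The wider list was also drawn up with earlier results of these data known, so its count is a description.

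Among the closest relatives of the Scribble module, LRRC1, a LAP-family scaffold like SCRIB, had 1 peak with a fold of 10.3 (chromosome 6, 53795061 to 53795210) and a summit of 9.43 inside it. The LAP genes ERBIN and LRRC7 had none. DLG4 had a peak with a fold of 2.75. Its summit of 47.6 lay in a stretch shared with ACADVL, 24 bases from a plus-strand peak of fold 11.5, whereas DLG4 lies on the minus strand. This summit therefore cannot be assigned to DLG4, although the count of 14 genes with a summit includes DLG4. DLG2 had a summit of 29.5 and no peak, and DLG3 had neither. ARHGEF7, an exchange factor for RAC1 and CDC42 that SCRIB binds, had a peak with a fold of 2.94. Its partner GIT1 had 2 summits, up to 13.6, and GIT2 had no site.

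Relatives of the Par and Crumbs proteins had peaks about as often as other genes. A peak lay in 1 of 4 Par paralogs, 1 of 4 Par partners and 2 of 8 Crumbs genes, where 21.3% of protein-coding genes had one. None of these genes had a summit, where 9.4% of protein-coding genes had one. The genes are too few for a statement about either list. PRKCZ, the other atypical protein kinase C, had 3 peaks with folds of 3.35 to 4.50, and PARD3B, PARD6A and PARD6G had none. ECT2, a guanine nucleotide exchange factor bound by the Par complex, had 2 peaks with folds up to 4.85, while CDC42, RAC1 and TIAM1 had no site. In the Crumbs group LIN7B, a small PDZ protein bound by PALS1, had 3 peaks with folds of 4.46 to 6.5, and MPDZ, the paralog of PATJ, had 2 with folds up to 4.2. The Crumbs receptor genes CRB1, CRB2 and CRB3, LIN7A, LIN7C and PALS2 had no site.

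The MARK kinases, a family that opposes the Par complex, included the highest fold of the wider list. MARK3 had a peak with a fold of 20.1 (FDR 0.00123) with a summit of 7.30 inside it, and a second peak of 4.82. STK11, the kinase LKB1 that activates the MARK kinases, had a peak with a fold of 9.20 (FDR 0.000759) and 2 summits up to 25. MARK1, MARK2 and MARK4 had no site. Of the 6 YWHA genes, from a family of adaptors that bind phosphorylated proteins, YWHAG and YWHAH had a peak each (3.38 and 2.7). Summits lay in 4 of the 6, up to 33.8 in YWHAE. The shares over all protein-coding genes were 21.3% with a peak and 9.4% with a summit, and 6 genes are too few for a statement about the family. The YWHAH peak also overlapped 1 other gene.

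Planar polarity genes, which orient cells within the sheet, had the most peaks of the wider list, 20 in 4 of 7 genes. The share over all protein-coding genes was 21.3% with a peak, and 7 genes are too few for a statement about the family. The flamingo cadherin genes CELSR1, CELSR2 and CELSR3 had 7, 7 and 5 peaks with folds up to 12.9, 13.6 and 10.0. Their partner VANGL1 had 1 peak (5.89), and VANGL2, PRICKLE1 and PRICKLE2 had none. AMOTL2, of the angiomotin family of junction scaffolds, had 9 peaks with folds of 1.24 to 6.55. WWC1 (KIBRA) had 5 with folds of 3.50 to 7.67, and NF2 (merlin) had 1 of 6.33. In tight junctions, occludin (OCLN) had 1 peak of 5.81 and F11R, a junctional adhesion molecule that binds PARD3, 3 up to 4.82. TJP1 had only a summit of 3.76.

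**Figure D5:**
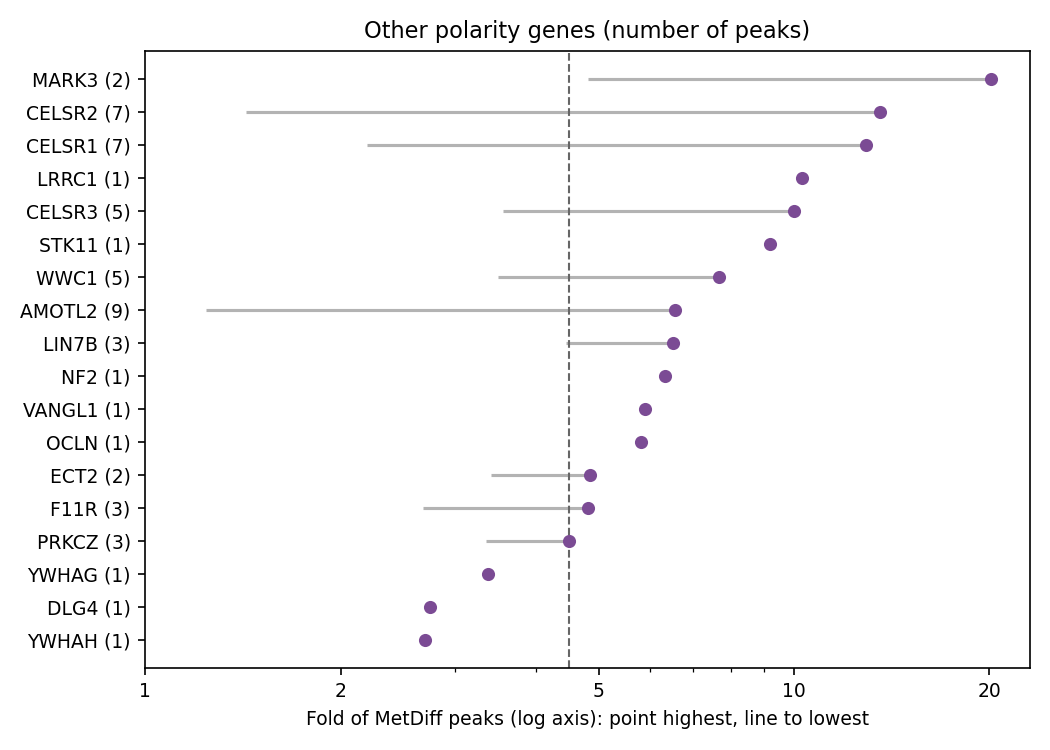
Fold of the MetDiff peaks (log axis) in 18 paralogs and partners named by rule that had a peak, with the point at the highest peak of the gene, the line reaching to its lowest, the number of peaks in brackets and the list median of 4.5 as a dashed line. MARK3 stands highest with 20.1, followed by CELSR2 with 13.6 and CELSR1 with 12.9.

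For LIN7B and ECT2 a peak reached into a promoter window of RefSeq, so that some of its sequence could be shown on GRCh38. The stretches lie on the plus strand at chr19:49114390-49114419 for LIN7B, and at chr3:172750828-172750857 and chr3:172750959-172750983 for the 2 blocks of an ECT2 peak. At most 30 bases of a block are shown. They are written 5′ to 3′ with guanines, the base that m1G modifies, in capitals.
LIN7B: aGctGtGGcGccGacatGGctGcGctGGtG
ECT2, block 1: GGtGGaactcctaGGGcttttttGaGaGtG
ECT2, block 2: aattccGGaGcGccccaGctcaGGc
The LIN7B stretch had 13 guanines of 30 bases (43.3%). It lies within the first 50 bases after the listed start, which had 31.3% guanine over all 35116 windows of the table. The ECT2 stretches had 11 guanines of 30 bases (36.7%) and 7 of 25 (28%). They lie upstream of the listed start of their window, at 172751002, so that share is no background for them. The peaks had folds of 6.5 and 3.41, and 3 stretches allow no statement about guanine content and fold.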

How the data were processed

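m1G precipitation and input libraries of PANC-1 cells were deposited as 2 peak lists of the whole series. STAR 2.7.1 and MACS2 2.2.5 are named with GRCh38, per the submitters' processing notes. The sources used here do not say which libraries entered each list or whether they were pooled. The deposited lists have no header, so units were read from layout and values. The deposited MACS2 list gives a −log10 q-value per summit. The deposited MetDiff list gives a p-value per peak. It also gives, as deposited, an FDR on the log10 scale and a fold, which is a ratio. All these values are the authors'.

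Exon blocks were built from block starts and sizes (BED convention, counted from 1). A peak belonged to a gene when all its blocks lay in the gene's RefSeq span (GRCh38.p14), whatever other gene overlapped, and a summit when its position did. Gene strand came from the peaks or the promoter table. RefSeq spans hold no exons, so untranslated and coding regions were not analysed here. Python 3.11.15 with pandas 2.3.3 was used, and interval code was tested on simulated data. No statistical test was run. The members and lists were chosen with earlier results of these data known. Partner genes are named when their highest fold reached the list median or they had a summit, at most 20 by fold; of these 20, DLG2 had a summit only and 1 gene, counted in the totals, is not reported here. Other partners were named to complete their families. Alternatives were other assignment rules, stricter thresholds and other distances.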

Additional observations from a re-analysis of the deposited data

How the results depend on the processing

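The counts of genes with a peak (6) or a summit (3) moved by no more than 1.5 times under every alternative run: sole-gene assignment, any overlapping block, FDR under 0.01, fold of at least 2, −log10 q of at least 5 or 10, and leaving out SCRIB, which was added after seeing the data. In all, 42 of the 51 alternative values stayed within that range, but several of them could not move. No peak of the 10 genes overlapped another gene, the lowest fold was 2.16 and the lowest summit was 5.13. Leaving out SCRIB takes away 1 gene by construction, and the step from 3 to 2 genes with a summit lies on the limit of 1.5. The tally is therefore no measure of robustness. Without SCRIB there were 9 peaks and 3 summits, 2 peaks with a summit within 150 bases (6 with it), 3 peaks in the last 25% of the span (5 with it) and a median −log10 q of 21.5 (13.3 with it). With summits of −log10 q of at least 10 alone that median was also 21.5. Within 50 bases, 3 peaks had a summit. The count of summits at a block rose from 0 inside it to 3 within 50 and 6 within 150 bases. The shifts came where SCRIB was left out, weaker summits were dropped or the distance was changed. No paired analysis was possible because the lists hold no value per library, and the planned comparison of knockdown with control could not be run for that reason. The depth is unknown, so no counting error can be given for a fold, and a gene with no peak is not shown to lack m1G.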
